A study of Mus musculus with 18 samples.

Results

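Cardiomyocytes selected from differentiating mouse embryonic stem cells were set against the GFP-positive cells of days 7 and 8 of differentiation. The arrays were taken by their titles: 2 of selected cardiomyocytes, 2 of day 7 GFP-positive cells and 2 of day 8 GFP-positive cells, which are 6 of the 18 arrays of the series. All cells came from the mouse embryonic stem cell line D3, grown on mouse embryonic fibroblast feeders that were removed before differentiation, and were differentiated as embryoid bodies in hanging drops, with ascorbic acid in the medium. The GFP-positive cells came from transgenic clones with an Nkx2-5 enhancer fragment and the hsp68 minimal promoter in front of EGFP, picked as colonies resistant to hygromycin, and were sorted by flow cytometry; each day had 1 array of batch 1 and 1 of batch 2. The cardiomyocytes came from 1 other stable clone, in which the alpha myosin heavy chain (Myh6) promoter drove neomycin phosphotransferase, and they were selected with G418, an antibiotic that kills cells without this enzyme. The labels give the cardiomyocytes no day and no batch. Clone, reporter, sorting against drug selection and age of the culture therefore differ together between the groups and cannot be told apart. Nothing in the labels tells if the arrays of one group stem from separate cultures. The p-values therefore rest on the spread of these samples alone, and that spread may be technical.

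Heart muscle cells form from mesoderm that switches on transcription factors such as Nkx2-5, Tbx5 and Gata4, and they assemble sarcomeres, the contractile units of thick myosin and thin actin filaments anchored in Z-discs, before the membranes that store and release calcium are complete. As the heart matures, its muscle moves from glucose towards fatty acids as fuel, slows its divisions and exchanges fetal for adult isoforms of several proteins. The Nkx2-5 enhancer is active in early heart progenitors, while Myh6 is a gene of muscle cells that contract, so the comparison asked how cells chosen by a muscle gene differ from cells chosen by a progenitor enhancer.

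Values are MAS5 signals of Affymetrix arrays, scaled by the authors to a common level per array, after 2 rounds of amplification of the RNA. The median signal was 20.1 and 20.2 on the cardiomyocyte arrays and 23.0 to 29.3 on the GFP-positive arrays. Over all probe sets, which share arrays and are no replicates, the cardiomyocyte arrays correlated with r = 0.977, the GFP-positive arrays with r between 0.958 and 0.974, and arrays of different kind with r between 0.893 and 0.903. The 3' to 5' ratio of Gapdh, a measure of RNA quality, was 1.58 and 1.62 against 1.28 to 1.64. That of beta-actin was 1.35 and 1.60 against 1.63 to 1.88, so the groups did not overlap in this ratio. Its part in the differences below was not tested. Differences below are means of log2(signal + 6.8), cardiomyocytes minus GFP-positive cells, each ± its standard error (SE) in limma, fitted over the 18 arrays of the series with 2 a group; the offset understates changes of dim genes. GFP-positive values are always given in the order day 7 batch 1, day 7 batch 2, day 8 batch 1, day 8 batch 2. Of 13379 genes tested, 5798 passed the threshold of an adjusted p of 0.05, which is 43.3%, with 2393 higher (17.9%) and 3405 lower (25.5%) in the cardiomyocytes. The count was 3753 without the first cardiomyocyte array and 3722 without the second. List counts of higher and lower genes below are to be read against 17.9% and 25.5%. Both cardiomyocyte arrays lay above all 4 GFP-positive arrays in 27.0% of all tested genes and below them in 34.8%. The median difference over all tested genes was -0.13, and list medians below are to be read against it. Equal array medians move it to -0.01 and give 2816 higher and 2610 lower genes. Day 8 and day 7 GFP-positive cells did not differ at this threshold for any gene (0 called in limma) while 1396 had an unadjusted p under 0.05. With 2 arrays a day this test cannot tell if the days are alike. The reference is the mean of both days, with each array shown. Against day 8 alone 4757 genes were called, and against day 7 alone 5121.

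The selected cells carried the markers of heart muscle. Signal from Myh6 followed from the design, since its promoter drove the selection, and the sum below includes it. All 8 cardiomyocyte markers (Myh6, Tnnt2, Tnni3, Actn2, Mybpc3, Ryr2, Nppa and Myl7) had a mean above 22.5, the median of all signals, in both kinds of cell, and 5 of them were higher past the threshold in the cardiomyocytes. Their summed signal was 41572.6 and 40796.4 on the cardiomyocyte arrays against 7691.5 to 12731.1 on the GFP-positive arrays and 1286.3 to 4495.1 on the 4 GFP-negative arrays of the same days, so the groups did not overlap and the GFP-positive cells lay between the other two. In these bulk samples fewer cells of a type and less RNA per cell cannot be told apart.

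Myh6 and Nkx2-5, whose regulatory regions drive the transgenes, were both higher in the cardiomyocytes without passing the threshold. Myh6, the fast myosin heavy chain of atrial and adult mouse ventricular muscle, had signals of 8122.3 and 7891.5 in the cardiomyocytes and of 2920.9, 1192.9, 2478.2 and 2592.9 in the GFP-positive cells. The groups did not overlap, and the day 7 array of batch 2 was the lowest. The difference was 1.88 ± 1.41 (adjusted p = 0.308), while it passed in limma when the arrays of days 5 and 6 were left out of the fit (adjusted p = 0.0136). Nkx2-5, the homeobox factor of early heart cells, had signals of 474.4 and 500.0 against 292.3, 215.5, 249.2 and 323.2. These groups did not overlap either, and the difference of 0.85 ± 0.44 had an adjusted p of 0.139, or 0.0483 with batch as a block.

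Contractile filament genes were higher in the cardiomyocytes to very different degrees. Of 12 thick filament and M-band genes tested, 5 were higher, 0 lower and 7 not past the threshold, with a median of 2.03; of 13 thin filament genes, 7 were higher and 0 lower, with a median of 1.79. In 10 of the 12 and 12 of the 13 both cardiomyocyte arrays lay above all 4 GFP-positive arrays, against 27.0% of all tested genes. The threshold was passed by 9 and 11 of them without the arrays of days 5 and 6, and by 3 and 2 of the thick filament genes without the first or the second cardiomyocyte array.

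Among the thick filament genes, Mybphl, a relative of myosin binding protein C known from atrial muscle, had signals of 282.7 and 259.2 against 12.7, 9.1, 18.0 and 24.9. It rose by 3.64 ± 0.31 (log2; adjusted p = 3.15e-06). Mybpc3, the cardiac myosin binding protein C, stood at 3776.5 and 3543.8 against 610.6, 393.5, 582.8 and 693.3 and rose by 2.70 ± 0.83 (adjusted p = 0.0181). Myom2, an M-band protein of mature fast muscle, rose by 2.70 from signals of at most 1.6, and Myom1, its relative, rose by 2.19 ± 0.73, a call kept in 1 of the 6 fits that left out 1 array. Mylk3, the cardiac myosin light chain kinase, rose by 1.79 ± 0.46. Myh7 and Ttn, picked out after their values were seen, did not separate the groups. Myh7, the slow myosin heavy chain that predominates in the fetal mouse ventricle, had signals of 3322.9 and 3136.6 against 3339.1, 1725.6, 3425.6 and 3588.7. Ttn, the molecular spring titin, stood at 1439.2 and 1892.5 against 1865.7, 867.8, 1763.1 and 1352.9. In both genes the cardiomyocyte arrays lay among the GFP-positive ones. The differences were 0.15 ± 1.43 for Myh7 and 0.23 ± 1.29 for Ttn, with standard errors that leave room for changes in either direction.

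In the thin filament the largest change was that of Lmod2, a leiomodin that lengthens actin filaments, with signals of 309.1 and 283.3 against 13.5, 7.9, 0.9 and 12.0; it rose by 4.39 ± 0.34 (adjusted p = 1.70e-06). Tnni3, the adult cardiac isoform of troponin I, stood at 1977.1 and 1730.0 against 172.5, 78.7, 123.5 and 121.5 and rose by 3.87 ± 0.62 (adjusted p = 3.21e-04). Tnni1, the fetal troponin I isoform, differed by less, at 5603.2 and 5664.8 against 1463.0 to 2272.0. Its groups did not overlap, but its 1.72 ± 1.43 did not pass (adjusted p = 0.363). Tnni1 passed in limma when the arrays of the earlier days were left out of the fit (adjusted p = 2.63e-04). Tnnt1, the slow skeletal troponin T, rose by 3.33 ± 0.34, Tpm2, beta-tropomyosin, by 2.92 ± 0.31 and Acta1, skeletal alpha-actin, which heart muscle also makes, by 2.37 ± 0.69. Tnnt2 and Actc1, the cardiac troponin T and cardiac actin, were among the brightest probe sets in both kinds of cell and did not pass, at 1.65 ± 1.88 and 0.72 ± 1.13. Without the arrays of the earlier days Tnnt2 passed in limma (adjusted p = 0.00351), while Actc1 did not (adjusted p = 0.0646).

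**Figure D1:**
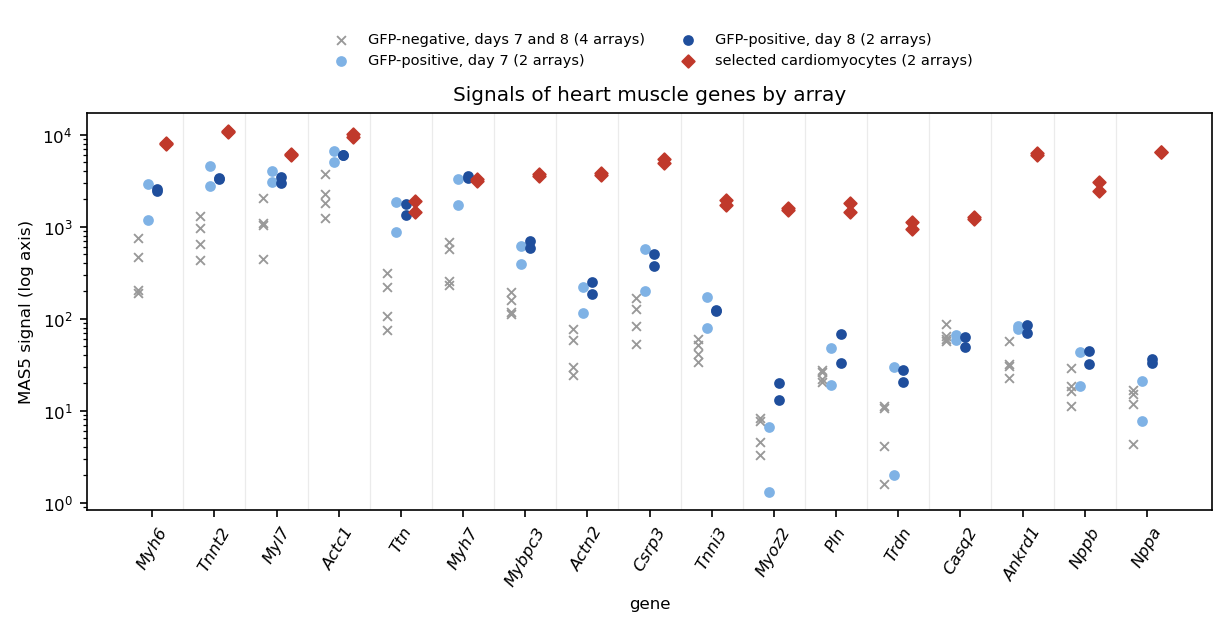
MAS5 signal (log axis) of 17 heart muscle genes on each array: selected cardiomyocytes (red diamonds), day 7 (light blue) and day 8 (dark blue) GFP-positive cells, and GFP-negative cells of the same days (grey crosses); arrays are to be compared within a gene, since probe sets of different genes differ in brightness. Myh7 and Ttn overlap between cardiomyocytes and GFP-positive cells, while Nppa lies at 6446.5 and 6508.4 against at most 36.3.

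Z-disc, costamere and stress proteins of muscle had the highest median of the contractile lists. Of 20 tested, 18 were higher (against 17.9% of all tested genes) and 0 lower, and the median was 3.20. In all 20 both cardiomyocyte arrays lay above the GFP-positive arrays, against 27.0% of all tested genes. Myoz2, calsarcin-1, which ties calcineurin to the Z-disc, had signals of 1504.1 and 1606.0 against 1.3, 6.7, 20.0 and 13.0, and rose by 6.65 ± 0.35 (adjusted p = 9.04e-08). Ankrd1, a titin-bound ankyrin repeat protein that responds to stretch, stood at 6404.8 and 6087.2 against 82.2, 77.0, 70.0 and 85.5 and rose by 6.20 ± 0.30 (adjusted p = 4.98e-08). Smpx, a small muscle protein, rose by 5.50 ± 0.53 and Cryab, the chaperone that protects desmin filaments, by 3.98 ± 1.17. Actn2, the alpha-actinin that cross-links actin in the Z-disc, stood at 3626.2 and 3838.5 against 221.6, 116.3, 184.7 and 249.8 and rose by 4.28 ± 0.66 (adjusted p = 2.43e-04). Csrp3, muscle LIM protein, rose by 3.72 ± 0.88. The 2 members that did not pass were Nexn, a nexilin of the Z-disc, at 1.5 ± 0.63, and Myzap, a protein of intercalated discs, at 0.39 ± 0.28. Nexn passed with batch as a block (adjusted p = 0.00737) and without the arrays of days 5 and 6 (adjusted p = 0.00165 in limma).

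Genes of calcium cycling through the sarcoplasmic reticulum, the calcium store of muscle, were mostly higher. Of 18 tested, 14 were higher (against 17.9% of all tested genes) and 0 lower, with a median of 2.07. Trdn, triadin, which links the release channel to its calcium buffer, had signals of 955.6 and 1125.7 against 30.0, 2.0, 27.7 and 20.7 and rose by 5.47 ± 0.46 (adjusted p = 2.77e-06). Pln, phospholamban, the brake of the calcium pump, stood at 1809.7 and 1458.5 against 47.8, 18.9, 32.7 and 68.9 and rose by 5.17 ± 0.44 (adjusted p = 3.00e-06). Sln, sarcolipin, a brake of the pump known from atrial muscle, rose by 3.83 ± 0.43. Casq2, the cardiac calcium buffer calsequestrin, stood at 1279.6 and 1212.5 against 66.5, 59.1, 63.5 and 49.3 and rose by 4.24 ± 0.29; its GFP-negative mean of 67.6 was like that of the GFP-positive cells. Cav3, muscle caveolin, rose by 4.84 ± 0.40 and Slc8a1, the sodium-calcium exchanger, by 2.95 ± 0.49. The pump and the release channel themselves changed by less. Atp2a2, the pump SERCA2, had signals of 4298.5 and 4181.1 against 2371.7 to 2865.9 and rose by 0.72 ± 0.11, though its 4 other tested probe sets gave differences from -1.24 to 3.54. Ryr2, the release channel, rose by 2.37 ± 0.77 (adjusted p = 0.0249) and passed in 2 of the 6 fits that left out 1 array.

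Ion channels moved unevenly. Of 23 channels, pumps and gap junction genes tested, 10 were higher and 1 lower, against 17.9% and 25.5% of all tested genes. The median was 0.91. The GFP-positive mean was under 22.5 units in 9 of the 23 and the cardiomyocyte mean in 4. Members dim in the GFP-positive cells could hardly come out lower. Of the 10, 4 are subunits of calcium channels: Cacna1g, a T-type pore, rose by 2.72 ± 0.40 from at most 8.5 units, Cacna2d1 by 2.52 ± 0.40, Cacnb2 by 2.22 ± 0.49 and Cacna1c, the L-type pore of the heart, by 1.76 ± 0.36. Kcne1 and Kcnq1, which together form a slow repolarising potassium channel, rose by 2.66 ± 0.45 and 1.92 ± 0.44. Fxyd1, phospholemman, the regulator of the sodium pump, had signals of 921.7 and 797.8 against 50.8, 52.2, 45.9 and 78.2, and rose by 3.79 ± 0.39 (adjusted p = 1.09e-05). Gja1, connexin 43, the main gap junction protein of working muscle, stood at 2096.2 and 2273.5 against 784.2 to 1610.4 and rose by 0.91 ± 0.29. Cacna2d2 was the 1 member that fell, by 1.13 ± 0.39. Gja1 and Cacna2d2 each kept the call in 2 of the 6 fits without 1 array.

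The natriuretic peptides gave the largest rise of all tested genes. Nppa, the atrial natriuretic peptide, which lowers blood volume and is made by atrial and embryonic ventricular muscle, had signals of 6446.5 and 6508.4 in the cardiomyocytes and of 21.2, 7.8, 32.6 and 36.3 in the GFP-positive cells. The groups lay far apart, and the GFP-negative mean of the same days was 12.0. The difference was 7.81 ± 0.32 (adjusted p = 1.80e-08), which is 225-fold on this scale. Nppb, its ventricular relative, stood at 2449.5 and 3071.9 against 43.0, 18.4, 31.9 and 44.5 and rose by 6.11 ± 0.49 (adjusted p = 2.09e-06). Mb, myoglobin, the oxygen store of muscle, stood at 1440.1 and 742.0 against 31.8, 1.8, 36.6 and 33.6 and rose by 5.24 ± 0.46, with the first cardiomyocyte array clearly above the second. Ckmt2, the muscle creatine kinase of mitochondria, rose by 1.91 ± 0.30. Npr3, the clearance receptor that removes natriuretic peptides, went the other way, with 42.5 and 38.4 against 248.4, 138.7, 375.8 and 380.9, and fell by 2.53 ± 0.85 (adjusted p = 0.0287), a call kept in 1 of the 6 fits without 1 array.

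The promoters of Nppa, Nppb, Ankrd1 and Myh6 are shown because Nppa, Nppb and Ankrd1 were no higher than 85.5 units in any GFP-positive array and at least 2449.5 in the cardiomyocytes, and because the Myh6 promoter drove the selection. The 250 bases before their annotated starts are from RefSeq on GRCm38.p6, written 5′ to 3′ on the strand of the gene. Capitals mark matches on either strand to 3 motifs. The GATA factor motif was searched as AGATAA, with T allowed as the first letter and G as the last. The M-CAT motif was searched as CATTCC. The third motif is the TATA box, searched as TATAAA.
Nppa (chr4:148000472-148000721, plus strand): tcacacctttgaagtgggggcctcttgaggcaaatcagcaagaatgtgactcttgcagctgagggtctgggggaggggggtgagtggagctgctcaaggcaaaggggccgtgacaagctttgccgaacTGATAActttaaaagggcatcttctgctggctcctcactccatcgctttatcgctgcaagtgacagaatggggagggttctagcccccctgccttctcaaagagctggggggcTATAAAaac
Nppb (chr4:147985650-147985899, plus strand): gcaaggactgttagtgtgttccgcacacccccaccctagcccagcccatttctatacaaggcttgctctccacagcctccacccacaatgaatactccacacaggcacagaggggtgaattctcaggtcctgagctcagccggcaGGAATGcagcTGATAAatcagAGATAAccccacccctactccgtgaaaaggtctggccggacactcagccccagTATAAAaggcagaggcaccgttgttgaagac
Ankrd1 (chr19:36119845-36120094, minus strand): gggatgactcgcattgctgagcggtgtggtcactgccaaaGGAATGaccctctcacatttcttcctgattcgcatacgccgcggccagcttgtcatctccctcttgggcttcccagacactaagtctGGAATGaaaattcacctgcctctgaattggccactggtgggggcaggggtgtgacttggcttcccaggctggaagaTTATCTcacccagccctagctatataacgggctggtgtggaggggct
Myh6 (chr14:54966608-54966857, minus strand): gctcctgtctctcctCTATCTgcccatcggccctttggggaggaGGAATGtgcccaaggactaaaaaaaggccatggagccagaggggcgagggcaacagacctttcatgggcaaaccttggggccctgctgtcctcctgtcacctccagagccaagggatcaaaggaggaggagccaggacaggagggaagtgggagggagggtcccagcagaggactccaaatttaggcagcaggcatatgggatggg
All 4 windows held a GATA match, and those of Nppb, Ankrd1 and Myh6 an M-CAT match. Of the 27025 genes with a promoter in the table, 29.7% held a GATA match in a window of this length, 14.4% an M-CAT match and 14.3% TATAAA. Of the 46 tested filament, Z-disc and natriuretic peptide list genes with a promoter there, 19 held a GATA match (41.3%), 17 an M-CAT match (37.0%), 8 a CArG box (17.4%, against 1.62% of all genes) and 6 a MEF2 motif (13.0%, against 1.99%). TATAAA was in 10 of the 46 (21.7%), and AAGTG, a core of the NKX2-5 motif, in 18 (39.1%, against 44.3% of all genes). AAGTG, the CArG box and the MEF2 motif, which SRF and MEF2 factors bind, are not in capitals. Such a match is a description of letters, not of binding, and was not tested.

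Receptor and cyclic nucleotide genes of heart muscle did not move as a group. Of 16 tested, 5 were higher and 2 lower, against 17.9% and 25.5% of all tested genes. The other 9 did not pass the threshold, and the list median was 0.03. Without the first or the second cardiomyocyte array 3 were higher. Akap6, the anchor of protein kinase A at the muscle nucleus, stood at 295.5 and 305.3 against 34.9, 21.7, 16.8 and 25.3 and rose by 3.32 ± 0.32 (adjusted p = 8.09e-06), and Adcy5, the main adenylyl cyclase of adult heart, rose by 2.02 ± 0.38. Prkar2b, a regulatory subunit of protein kinase A, stood at 80.1 and 81.6 against 1667.3, 2491.6, 1123.3 and 973.6 and fell by 4.07 ± 0.66 (adjusted p = 3.36e-04), and its GFP-negative mean was 2657.8.

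Fuel genes separated into those of mitochondria, which were mostly higher, and those of glucose use, which were mostly lower. Over all tested genes 17.9% were higher and 25.5% lower. Of 24 genes of fatty acid uptake and oxidation, 18 were higher and 0 lower, with a median of 1.20; without the first cardiomyocyte array 10 were higher. Cpt1a, which admits long-chain fatty acids to mitochondria, had signals of 577.2 and 449.5 against 39.8, 27.1, 82.4 and 65.9 and rose by 3.19 ± 0.35 (adjusted p = 2.02e-05). Acadl, the long-chain acyl-CoA dehydrogenase, stood at 2638.8 and 2454.7 against 297.7, 258.5, 354.1 and 397.5 and rose by 2.95 ± 0.25 (adjusted p = 3.18e-06). Ppargc1a, the coactivator PGC-1alpha, which drives mitochondrial gene expression, rose by 2.47 ± 0.67 and Pdk4, the kinase that spares glucose by closing pyruvate dehydrogenase, by 1.82 ± 0.44. Cd36, the fatty acid transporter of adult heart, was at 20.3 and 22.8 against 9.4 to 32.8 and did not separate the groups.

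All 23 genes tested of the respiratory chain and citrate cycle were higher, with differences from 0.36 to 1.68 and a median of 0.82. Against the day 7 GFP-positive cells alone 16 were higher, and 21 with the mean of all probe sets of each gene. The median was 0.79 without the first cardiomyocyte array and 0.86 without the second. In all 23 both cardiomyocyte arrays lay above all GFP-positive arrays, against 27.0% of all tested genes. Mdh1, malate dehydrogenase of the shuttle that carries electrons to mitochondria, stood at 5417.7 and 5001.1 against 1643.4, 1799.8, 1785.8 and 1301.6 and rose by 1.68 ± 0.16 (adjusted p = 7.96e-06). Ogdh, of the citrate cycle, rose by 1.51 ± 0.17, Sdhb, the iron-sulphur subunit of complex II, by 1.30 ± 0.13 and Ndufa5, of complex I, by 1.34 ± 0.17. Cox6a2 and Cox7a1, the muscle isoforms of 2 cytochrome oxidase subunits, rose by 1.53 ± 0.49 and 1.34 ± 0.25. The call of Cox6a2 was kept in 2 of the 6 fits without 1 array.

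Of 21 genes of glycolysis and glucose transport, 5 were higher and 12 lower, against 17.9% and 25.5% of all tested genes. The list median was -0.54, and under equal array medians 9 were lower. Without 1 array at a time 2 to 5 were higher, with 2 left when either cardiomyocyte array was missing and 3 without the day 7 arrays of either batch or the day 8 array of batch 1. Slc2a3, the glucose transporter GLUT3, had signals of 568.9 and 507.5 against 7183.5, 6731.1, 7001.3 and 6155.3 and fell by 3.64 ± 0.16 (adjusted p = 1.88e-08), or 12.4-fold. Its GFP-negative mean, 5791.6, was also high, and the cardiomyocyte arrays were the low ones of all 10. Slc2a1, the transporter GLUT1, fell by 1.48 ± 0.19, while Slc2a4, the insulin-responsive GLUT4 of muscle, rose by 0.61 ± 0.23 at signals under 100, while its other tested probe set gave -0.18. Pdk1, the pyruvate dehydrogenase kinase induced by low oxygen, stood at 349.0 and 354.1 against 1926.2, 1893.4, 1694.3 and 1488.4 and fell by 2.29 ± 0.34. Slc16a3, the lactate exporter MCT4, fell by 1.91 ± 0.16 and Pfkl, the liver phosphofructokinase, by 1.80 ± 0.16. The other members that rose are known as muscle or heart isoforms. Pgam2, muscle phosphoglycerate mutase, rose by 4.04 ± 0.85, Ldhb, the heart subunit of lactate dehydrogenase, by 2.17 ± 0.40, Eno3, muscle enolase, by 1.66 ± 0.48 and Pfkm, muscle phosphofructokinase, by 0.63 ± 0.23. Pfkm and Slc2a4 each kept the call in 1 of the 6 fits without 1 array. Ldha, the other lactate dehydrogenase subunit, fell by 0.77 ± 0.16.

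**Figure D2:**
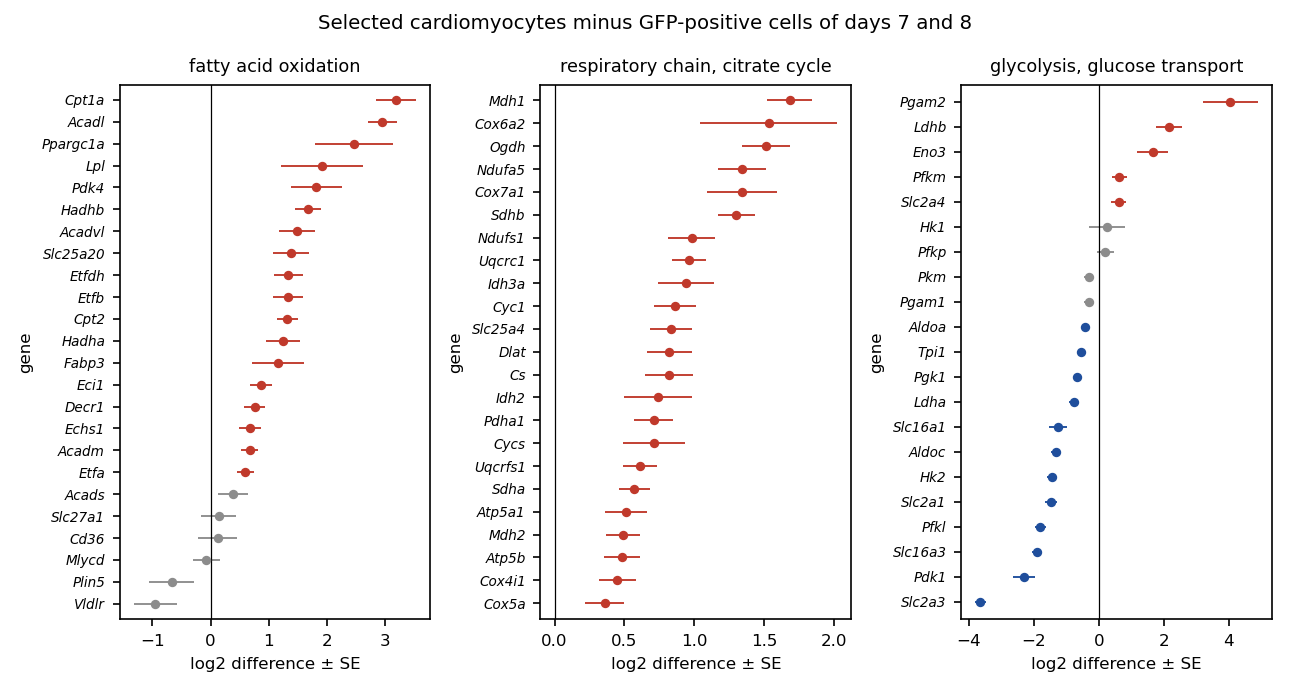
Log2 difference of selected cardiomyocytes minus day 7 and 8 GFP-positive cells (point) with its standard error (line) for each tested gene of 3 fuel lists; red passed the threshold higher, blue lower, grey did not pass, and the axes differ between panels. All 23 genes of the middle panel lie above 0, from 0.36 to 1.68, while 12 of the 21 genes on the right fell, with Slc2a3 at -3.64.

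Cardiac transcription factors did not move as a group. Their counts are to be read against 17.9% higher and 25.5% lower of all tested genes. Of 34 tested, 5 were higher, 5 lower and 24 not past the threshold, with a median of 0.01. The counts depended on the fit: they were 12 and 9 without the arrays of days 5 and 6, 10 and 6 with batch as a block, and 3 and 3 without either cardiomyocyte array. Tbx20, a T-box factor that sustains working heart muscle, had signals of 2166.0 and 2136.6 against 398.9, 410.0, 276.5 and 329.5 and rose by 2.60 ± 0.37 (adjusted p = 1.42e-04). Hopx, a homeodomain-only protein that works with SRF, stood at 2495.3 and 2401.5 against 683.1, 406.2, 543.9 and 556.7 and rose by 2.17 ± 0.39. Gata4, Mef2a and Srf rose by 1.12 ± 0.38, 0.97 ± 0.28 and 0.74 ± 0.17. Gata4 kept the call in 2 of the 6 fits without 1 array, and other probe sets of Mef2a gave differences from -1.42 to 0.83. The 5 that fell are known from progenitors and early chambers. Isl1, the LIM homeobox factor of second heart field progenitors, stood at 75.9 and 67.2 against 325.1, 251.2, 406.9 and 491.5 and fell by 2.22 ± 0.50 (adjusted p = 0.00330). Tbx1, another factor of that field, was at 0.9 and 1.1 against 75.9, 54.5, 58.1 and 59.9 and fell by 3.13 ± 0.76. Hey1 and Hey2, targets of Notch in atrium and ventricle, fell by 3.60 ± 0.36 and 1.91 ± 0.56, and Gata5, a GATA factor of endocardium and early heart, fell by 2.25 ± 0.78, a call kept in 0 of the 6 fits without 1 array (adjusted p = 0.0331 in limma with all arrays). Hey1 is also made by endothelium, whose markers were lower in the cardiomyocytes too, and their part in its fall was not tested.

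Signalling genes of heart development did not move as a group, against 17.9% higher and 25.5% lower of all tested genes. Of 32 tested, 6 were higher and 10 lower, with a median of -0.08. Without the first cardiomyocyte array 3 were higher and 6 lower, and without the second 5 were lower. Tgfb3, a TGF-beta ligand, had signals of 698.7 and 641.0 against 5.5, 0.7, 5.5 and 14.5 and rose by 5.76 ± 0.63 (adjusted p = 1.81e-05). Bmp4, a BMP ligand, stood at 1632.5 and 1478.8 against 613.9 to 750.3 and rose by 1.23 ± 0.39, whereas Bmp2 and Bmp5 fell by 1.25 ± 0.34 and 1.12 ± 0.40. In the 6 fits without 1 array the call was kept in 3 for Bmp4 and 0 for Bmp5. Wnt11, a ligand of the non-canonical WNT pathway, rose by 1.48 ± 0.26 and Sfrp2 and Sfrp1, secreted WNT inhibitors, by 1.81 ± 0.39 and 1.26 ± 0.37. Wnt2 fell by 2.04 ± 0.45 and Dkk1, another WNT inhibitor, by 1.79 ± 0.35. Of the hedgehog genes on the list, Shh, a ligand, fell by 1.85 ± 0.66, Ihh, its relative, by 1.20 ± 0.44 and Ptch1, receptor and target of the pathway, by 2.41 ± 0.27, from 842.9 to 1116.3 units in GFP-positive cells to 171.8 and 177.0. The calls of Shh and Ihh were kept in 0 and 1 of the 6 fits without 1 array, and Ihh did not pass without the arrays of days 5 and 6 (adjusted p = 0.0657 in limma). Notch1, the receptor, and its ligand Dll4 fell by 1.94 ± 0.29 and 1.56 ± 0.38.

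**Figure D3:**
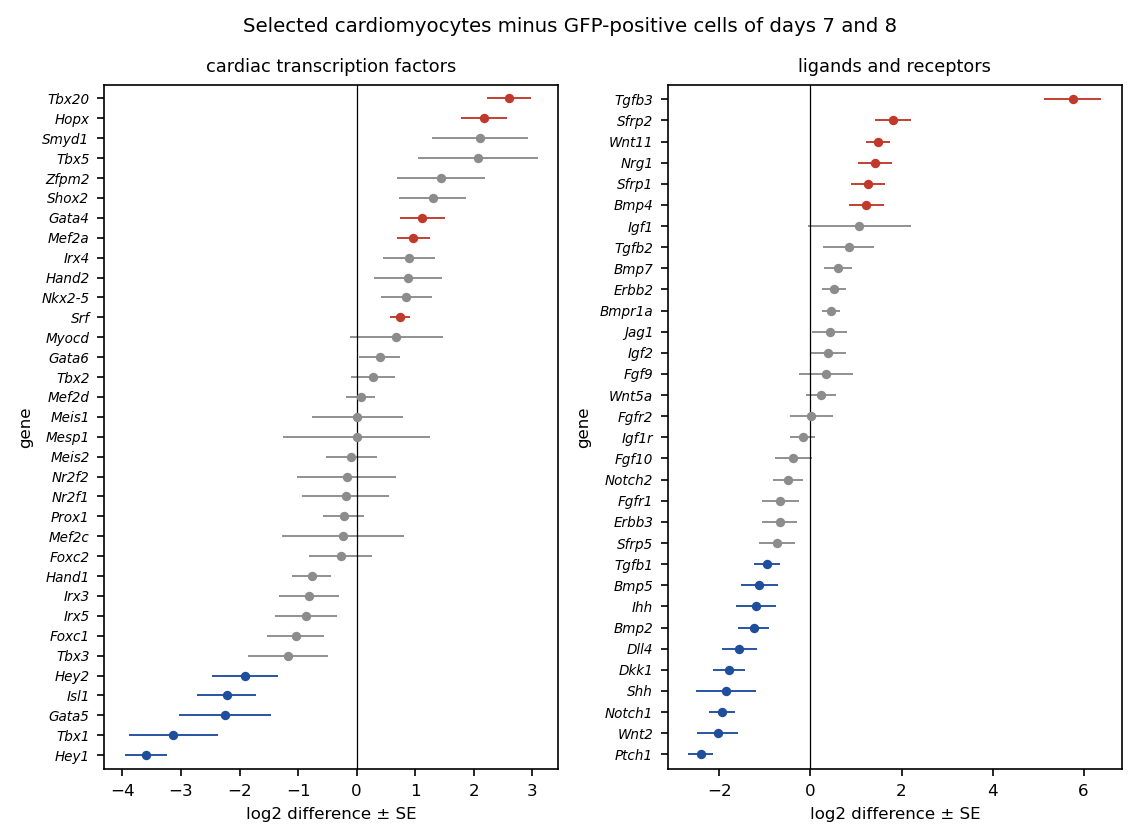
Log2 difference of selected cardiomyocytes minus day 7 and 8 GFP-positive cells (point) with its standard error (line) for 34 cardiac transcription factors and 32 ligands and receptors; red passed the threshold higher, blue lower and grey did not pass. Tbx20 and Hopx lead the factors that rose and Hey1 and Tbx1 those that fell, and Tgfb3 stands apart at 5.76.

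Genes known from fibroblasts, mesothelium and smooth muscle were higher in the selected cardiomyocytes as well. Of 31 fibroblast and matrix genes, 23 were higher and 1 lower, against 17.9% and 25.5% of all tested genes, with a median of 2.70. Lox, lysyl oxidase, the enzyme that cross-links collagen and elastin, had signals of 4826.6 and 4487.4 against 23.3, 7.4, 66.4 and 54.2 and rose by 6.97 ± 0.48 (adjusted p = 6.74e-07). Dcn, decorin, a small proteoglycan of fibroblasts, stood at 4204.6 and 4263.4 against 41.5, 42.5, 67.9 and 86.1 and rose by 6.06 ± 0.77, while its 1 other tested probe set gave -0.02. Bgn, biglycan, rose by 5.63 ± 0.51, Fbln2, fibulin-2, by 5.08 ± 0.67, Timp1, an inhibitor of metalloproteinases, by 4.94 ± 0.46 and Lum, lumican, by 4.15 ± 0.82. Col1a1 and Col1a2, the chains of type I collagen, rose by 3.62 ± 0.61 and 3.34 ± 0.74, while Col3a1, of type III collagen, differed by 3.0 ± 1.45 and did not pass (adjusted p = 0.112, or 0.0160 with batch as a block). Pdgfra, a receptor of fibroblasts and early mesoderm, overlapped between the groups, at 318.3 and 302.4 against 266.3 to 364.0. Has2, hyaluronan synthase of cardiac jelly, fell by 1.69 ± 0.35.

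Of 11 genes of epicardium and mesothelium, the cell sheets that cover the heart and body cavities, 9 were higher and 0 lower, with a median of 3.65. Of the 11, 5 had a GFP-positive mean under 22.5 units and 0 a cardiomyocyte mean under it. Such members could pass the filter through the cardiomyocyte arrays and could then hardly come out lower. The count and the median follow in part from that. Upk3b, a uroplakin of mesothelium, had signals of 2120.2 and 2171.9 against 13.9, 18.9, 15.4 and 16.6 and rose by 6.55 ± 0.66 (adjusted p = 1.00e-05). Tbx18, a T-box factor of epicardium and sinus node, stood at 606.0 and 650.4 against 11.8, 14.6, 23.8 and 23.7 and rose by 4.68 ± 0.39. Upk1b rose by 4.48 ± 0.56, Bnc1, basonuclin, by 4.00 ± 0.98, Wt1, the Wilms tumour factor of epicardium, by 3.54 ± 0.40, Msln, mesothelin, by 3.52 ± 0.40 and Aldh1a2, which makes retinoic acid, by 3.19 ± 0.45. Wt1 and Msln were at no more than 11.9 units in any GFP-positive array. Tcf21, a factor of epicardium-derived fibroblasts, differed by 1.4 ± 0.76 and did not pass. It passed without the arrays of days 5 and 6 (adjusted p = 0.00768 in limma). Of 12 smooth muscle genes, 8 were higher and 0 lower, against 17.9% and 25.5% of all tested genes, with a median of 1.99. Actg2, enteric smooth muscle actin, rose by 5.28 ± 0.38, Tagln, transgelin, by 3.74 ± 0.42, Cnn1, calponin, by 2.52 ± 0.38 and Myh11, the smooth muscle myosin, by 2.44 ± 0.35, from at most 4.7 units to 54.5 and 43.2.

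The marker sums give the size of these signals. For fibroblast markers (8 genes, 5 higher) the sum was 22618.2 and 22678.3 in the cardiomyocytes against 2414.4 to 3017.8 in GFP-positive and 3574.2 to 20710.2 in GFP-negative cells; all 8 were above 22.5 units in the cardiomyocytes. For epicardium and mesothelium (6 genes, 5 higher) it was 3964.6 and 4038.2 against 175.3 to 260.1, and for smooth muscle (5 genes, 3 higher) 17677.7 and 16879.9 against 5059.9 to 6870.4. Which cells these signals came from, and their part in the results for muscle and signalling genes, was not tested.

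**Figure D4:**
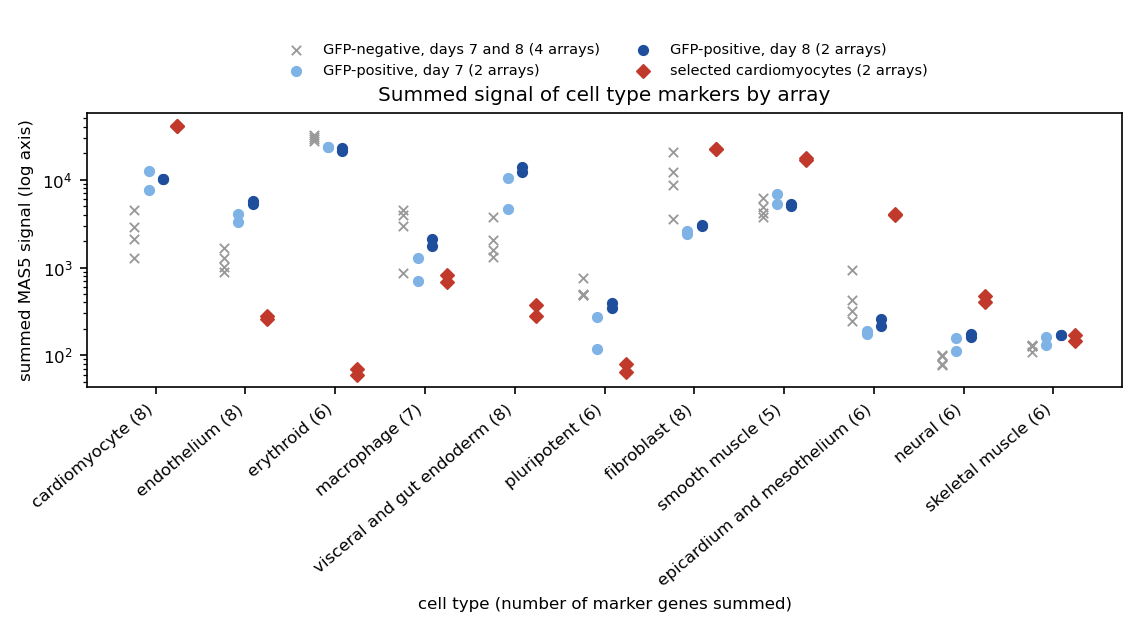
Summed MAS5 signal (log axis) of the marker genes of 11 cell types on each array, with the number of genes summed in brackets; symbols are as in the plot of heart muscle genes, and arrays are to be compared within a cell type. Cardiomyocyte, fibroblast, smooth muscle, mesothelial and neural sums are highest in the selected cardiomyocytes, and endothelial, erythroid, endoderm and pluripotent sums lowest. The high neural sum rests on Tubb3. It was the 1 neural marker that was higher, while 2 of the 3 tested were lower. Of the 6 neural markers, 1 had a cardiomyocyte mean of at least 22.5 units.

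Most blood, endoderm and endothelial genes tested were lower in the cardiomyocytes. In the blood list 0 of 24 were higher and 18 lower, against 17.9% and 25.5% of all tested genes, with a median of -2.68. Of the 24, 11 had a cardiomyocyte mean under 22.5 units and 0 a GFP-positive mean under it. Such members could pass the filter through the sorted arrays and could then hardly come out higher. The count and the median follow in part from that. Hba-x, the embryonic zeta globin, had signals of 1.2 and 1.7 against 6877.5, 6915.3, 6658.5 and 6049.3 and fell by 9.65 ± 2.12 (adjusted p = 0.00271), the largest fall of all tested genes. Hbb-bh1 and Hbb-y, the embryonic beta-like globins, differed by -8.38 ± 1.64 and -8.22 ± 1.56, and Alas2, the erythroid enzyme that starts haem synthesis, fell by 7.57 ± 1.32. Gata1 and Klf1, the erythroid transcription factors, were at 20.0 and 11.6 and at 24.7 and 17.5 in the cardiomyocytes. The erythroid marker sum was 70.2 and 60.3 in the cardiomyocytes against 21259.4 to 23905.8 in GFP-positive and 27395.7 to 31992.2 in GFP-negative cells, so both sorted fractions carried it. Macrophage markers fell in part: 3 of 7 were lower, and Csf1r, the receptor that defines the lineage, overlapped at 321.6 and 394.4 against 240.4 to 1168.6. Their summed signal overlapped too, at 832.8 and 675.8 in the cardiomyocytes against 705.0 to 2088.8 in GFP-positive cells. A cardiomyocyte mean of at least 22.5 units was found for 5 of the 7.

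Of 23 genes of visceral and gut endoderm, 0 were higher and 19 lower, with a median of -3.17. A cardiomyocyte mean under 22.5 units was found in 14 of the 23 and a GFP-positive mean under it in 0. Members of this kind could hardly come out higher, as in the blood list, so the count and the median follow in part from the filter. Ttr, transthyretin, the thyroid hormone carrier of yolk sac and liver, had signals of 18.0 and 14.1 against 6121.0, 3563.5, 6804.1 and 5620.7 and fell by 7.88 ± 1.56 (adjusted p = 0.00134). Rbp4, the retinol carrier, stood at 19.8 and 22.3 against 5548.0, 2166.7, 6084.9 and 5710.5 and fell by 7.35 ± 0.89 (adjusted p = 4.11e-05). The falls of the apolipoproteins Apom, Apoa1 and Apob were -6.15 ± 0.80, -6.09 ± 0.93 and -5.57 ± 0.81, and Epcam, the adhesion molecule of epithelia, fell by 5.18 ± 0.50. Afp, alpha-fetoprotein, did not pass, at 252.1 and 177.6 against 494.9 to 4916.8 (adjusted p = 0.165 in limma). It passed with batch as a block (0.0467) and without the arrays of days 5 and 6 (0.00683). In 21 of the 23 both cardiomyocyte arrays lay below all GFP-positive arrays, against 34.8% of all tested genes. In all 23 the day 7 array of batch 2 had the lowest GFP-positive signal, as it did in 5360 of all tested genes, and without that array the count of lower genes was also 19.

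Of 34 endothelial genes, 0 were higher and 30 lower, with a median of -3.50. The cardiomyocyte mean was under 22.5 units in 15 of the 34 and the GFP-positive mean in 0. Members dim in the cardiomyocytes could hardly come out higher here too, so the count and the median follow in part from the filter. Sox18, a transcription factor of vessels, had signals of 9.6 and 3.9 against 543.0, 574.3, 597.3 and 761.0 and fell by 5.55 ± 0.52 (adjusted p = 6.35e-06). Mmrn2, an endothelial matrix protein, stood at 20.8 and 18.8 against 1070.3, 529.5, 1753.9 and 1927.6 and fell by 5.48 ± 1.01. Plvap, Cldn5 and Icam2, proteins of endothelial pores, junctions and surface, were lower as well, at -5.11 ± 0.68, -5.06 ± 0.68 and -5.06 ± 0.76, and Kdr, the VEGF receptor, fell by 4.40 ± 0.38. Pecam1 and Tie1 were at or under 11.8 units in the cardiomyocytes. Eng and Ptprb did not separate the groups, with 221.2 and 213.9 against 128.6 to 315.0 for Eng. In the same fit, GFP-positive cells had 23 of the 34 endothelial genes and 14 of the 23 endoderm genes higher than GFP-negative cells of the same days (of all tested genes 6.63% were called there, 5.12% as higher), with list medians of 2.03 and 1.80; both comparisons share the 4 GFP-positive arrays, so their values are only set side by side.

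**Figure D5:**
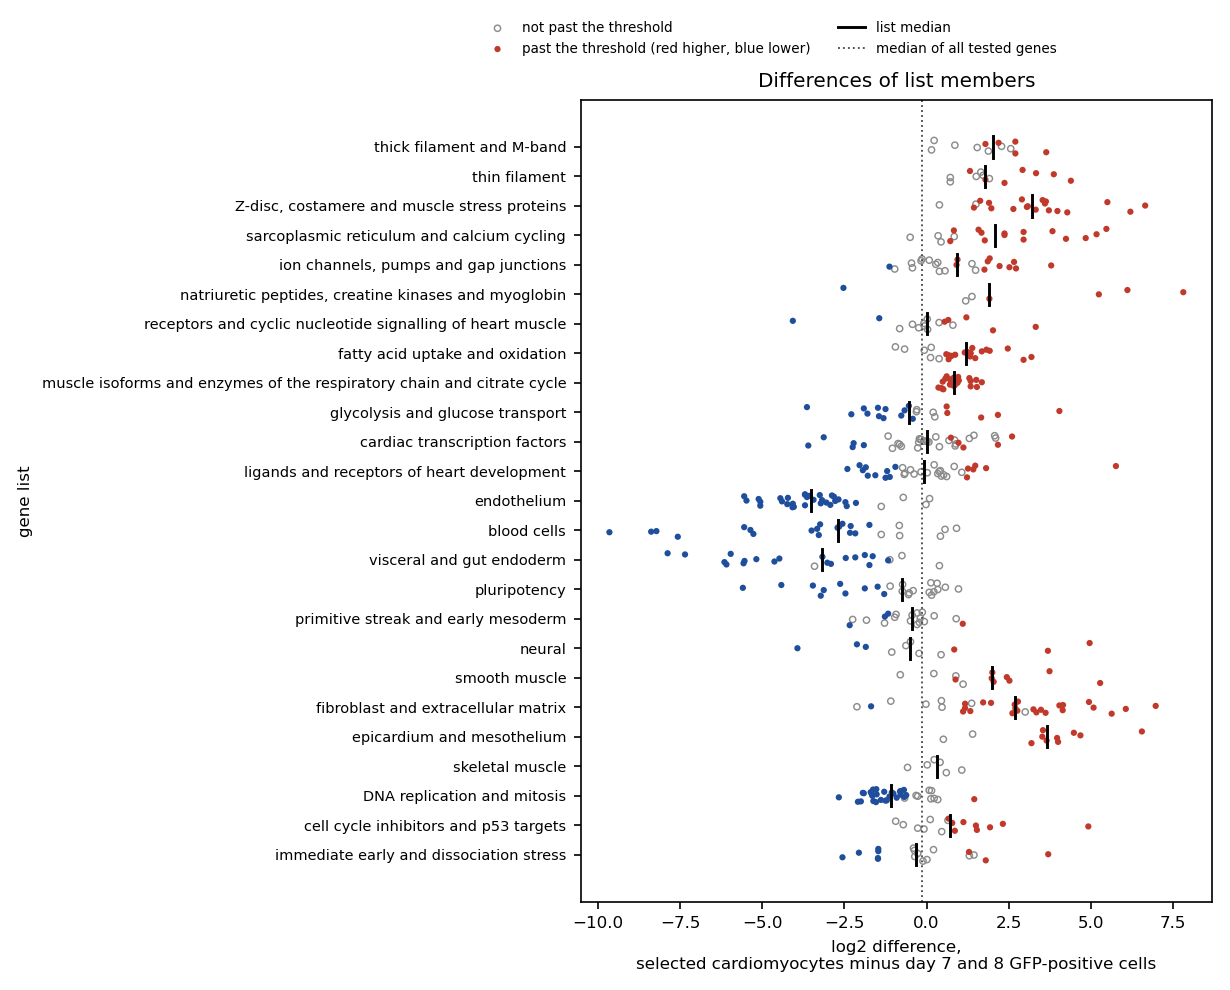
Log2 differences of the tested members of 25 gene lists, selected cardiomyocytes minus day 7 and 8 GFP-positive cells, 1 point a gene; red and blue passed the threshold higher and lower, open circles did not, black bars are list medians and the dotted line is the median of all tested genes, -0.13. Endothelium, blood and endoderm have medians of -3.50, -2.68 and -3.17, and Z-disc, mesothelium and matrix lists of 3.20, 3.65 and 2.70.

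Many genes of undifferentiated and early cells were dim in both kinds of cell. Of 24 pluripotency genes, 0 were higher and 10 lower, against 17.9% and 25.5% of all tested genes, with a median of -0.73. The GFP-positive mean was under 22.5 units in 10 of the 24 and the cardiomyocyte mean in 16. Lin28a, an RNA-binding protein of stem and progenitor cells that blocks let-7, had signals of 9.2 and 1.6 against 630.2, 540.4, 552.3 and 496.9 and fell by 5.59 ± 0.37 (adjusted p = 4.21e-07). Sox2, shared by stem cells and other progenitors, fell by 4.42 ± 0.52, Sall4, a zinc finger factor, fell by 3.46 ± 0.40 and Dnmt3b, a DNA methyltransferase of early cells, fell by 3.22 ± 0.30. Pou5f1 and Nanog, the defining factors, were at no more than 24.9 units on any of the 6 arrays. Of 19 primitive streak and early mesoderm genes, 1 was higher and 3 lower (1 lower without either cardiomyocyte array), among them Cdx2, which fell by 2.34 ± 0.56. Of 11 neural genes, 3 were higher and 3 lower. Counts of this and the primitive streak list are to be read against 17.9% higher and 25.5% lower of all tested genes. Tubb3, the class III beta-tubulin known from neurons, had signals of 388.7 and 425.1 against 2.3, 17.2, 5.1 and 5.2 and rose by 4.96 ± 0.42, and Ncam1, an adhesion molecule of neurons and muscle, rose by 3.69 ± 0.49. Sox1, Neurog1 and Dcx, further neural markers, stayed at or under 22.7 units on every one of the 6 arrays, while Pax6 fell by 1.85 ± 0.57 and Otx2 fell by 3.93 ± 0.57. Of 6 skeletal muscle genes tested, 0 passed in limma, and 2, Myl1 and Mylpf, had an unadjusted p under 0.05 (0.0407 and 0.0401). Myod1, Myog and Myf5, which define that lineage, were at no more than 17.9 units on the 6 arrays.

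Proliferation genes were lower and several inhibitors of the cell cycle higher. Of 36 genes of DNA replication and mitosis, 27 were lower and 1 higher, against 25.5% and 17.9% of all tested genes. The list median was -1.10, and under equal array medians 22 were lower. Cdc6, which loads the replicative helicase, had signals of 77.8 and 105.8 against 692.0, 1228.6, 426.8 and 393.1 and fell by 2.67 ± 0.29 (adjusted p = 1.97e-05). Aurkb and Birc5, of the chromosomal passenger complex, fell by 2.09 ± 0.19 and 2.00 ± 0.13, Mcm6 and Mcm5, of the helicase, by 1.94 ± 0.18 and 1.91 ± 0.23, and Mki67, the proliferation marker Ki-67, by 1.70 ± 0.18, from 1793.8 to 3506.0 units to 738.7 and 745.6. Ccnd2, cyclin D2 of the G1 phase, was the member that rose, by 1.45 ± 0.21.

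Of 16 inhibitors and p53 targets, 9 were higher and 0 lower, with a median of 0.73; 5 and 4 were higher without the first or the second cardiomyocyte array. Cdkn2b, the CDK4 and CDK6 inhibitor p15, had signals of 2155.4 and 2762.3 against 51.5, 33.6, 117.6 and 140.2 and rose by 4.92 ± 0.35 (adjusted p = 7.62e-07). Gadd45b, a stress gene, rose by 2.32 ± 0.26, Cdkn2a, of the neighbouring p16 and p19 locus, by 1.93 ± 0.39 and Cdkn1a, p21, by 1.53 ± 0.54, a call kept in 2 of the 6 fits without 1 array. Cdkn1c, p57, an inhibitor of the embryonic heart, lay below every GFP-positive array without passing, at 2930.8 and 2837.0 against 3136.0 to 3841.2.

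Of 18 genes of the immediate early response and of dissociation stress, 3 were higher and 6 lower. The share over all tested genes was 17.9% higher and 25.5% lower. Fos, a transcription factor induced within minutes of stimulation, had signals of 300.9 and 324.1 against 1563.6, 3301.3, 1635.3 and 1469.4 and fell by 2.56 ± 0.32 (adjusted p = 4.94e-05). Ier2 fell by 2.06 ± 0.20, Egr1 by 1.48 ± 0.29 and Dusp1, a phosphatase of MAP kinases, by 1.48 ± 0.30, while Hspb1, the small heat shock protein HSP27, which muscle also makes, rose by 3.70 ± 0.50. The count of higher genes was 5 without the day 7 array of batch 1. The labels describe trypsin treatment of embryoid bodies before flow cytometry and give no such step for the selected cells. Its part in these differences was not tested.

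Outside the lists, 9 genes were among the 15 with the largest rises. Cemip, which binds and degrades hyaluronan, had signals of 1314.6 and 1433.4 against 8.5, 1.3, 3.9 and 5.0 and rose by 6.95 ± 0.45 (adjusted p = 3.90e-07). Col8a1, a short-chain collagen, rose by 6.88 ± 0.42, Efemp1 and Fbln5, fibulin-3 and fibulin-5, by 6.80 ± 0.60 and 6.44 ± 0.43, Ogn, osteoglycin, by 6.29 ± 0.37 and Igfbp7, an insulin-like growth factor binding protein, by 6.09 ± 0.53. Aldh1a1, a retinaldehyde dehydrogenase, stood at 1464.4 and 1509.2 against 6.9, 1.6, 11.3 and 18.5 and rose by 6.62 ± 0.29 (adjusted p = 2.20e-08). The protease inhibitors Serpinb1a and Serpina3n rose by 6.70 ± 0.41 and 6.38 ± 0.43. Among the largest falls outside the lists, Car2, carbonic anhydrase of red cells and other tissues, stood at 44.3 and 53.3 against 4177.4, 4881.8, 3146.9 and 2794.3 and fell by 6.05 ± 0.19 (adjusted p = 1.23e-09). Slc4a1, the anion exchanger of red cells, fell by 6.47 ± 1.33. Igfbp1, an insulin-like growth factor binding protein of liver and yolk sac, was at 1.3 and 2.3 against 964.5, 40.3, 3415.9 and 2796.5 and fell by 6.57 ± 0.91, and Nepn, nephrocan, a secreted protein of early endoderm, had a like pattern, with 84.9 on the day 7 array of batch 2 and 949.5 to 2430.8 on the others.

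Other probe sets of the same gene mostly pointed the same way. Of the 340 called genes of the lists, the markers and the naming rule, 161 had another tested probe set and 17 had one of opposite sign. Of these 17, Atp2a2, Cald1, Dcn, Hadhb, Hnf4a, Mef2a, Ncam1, Pax6 and Slc2a4 are named here. Of the called genes with values given here, Cryab, Sfrp1, Ppargc1a, Mybpc3, Hey2, Eno3, Acta1, Pax6 and Mef2a kept the call in 4 of the 6 fits without 1 array, and Dll4, Cdx2, Bmp2, Mylk3 and Pdk4 in 5.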

How the data were processed

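The values are MAS5 signals from GCOS 1.4, per the submitters' processing notes; the deposited intensity values are linear and scaled per array, and the scaling target is not given in the sources used here. RNA was amplified in 2 rounds, per the labels. Of 45101 probe sets, 34945 have 1 gene symbol; the probe set with the highest mean signal stood for each of 18193 genes, and 13379 genes with a signal of at least 22.5 on 2 arrays were tested. The fit was limma 3.58.1 in R 4.3.3 (lmFit, eBayes with a variance trend) on log2(signal + 6.8), 9 group means over 18 arrays, with Benjamini-Hochberg adjustment over all tested genes and a threshold of 0.05. On simulated data with 100 genes changed by 1 and 100 by 2 on the log2 scale, it called 36% and 86% of them. Far more genes, 5798, were called in the data, so the adjusted threshold was a less strict cut-off there. These shares therefore do not give the power of this comparison. The number of arrays limits the precision.

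The comparison, the 25 gene lists and the rule for named genes were chosen with earlier results of these data known. The rule took the 15 highest and 15 lowest called genes whose arrays did not overlap, up to 6 called members of each list by size of difference (or else the 2 of lowest p), Nkx2-5, Myh6 and all cell type markers; other members named were picked after their values were seen. Of 581 list genes, 552 had a probe set and 508 were tested. The labels call the number of a sorted array its batch, so the arrays of a batch may be paired, while the cardiomyocytes have none. Batch differences of 28 pairs of sorted groups correlated with r from -0.183 to 0.653, and 13 pairs were over 0.1. For the day 7 and day 8 GFP-positive groups compared here r was -0.018. Alternatives were other offsets, scalings, filters, probe set rules, references, array subsets, array weights and the batch block.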

Additional observations from a re-analysis of the deposited data

How the results depend on the processing

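Leaving out 1 of the 6 arrays gave between 3722 and 5314 called genes, 1474 to 2206 higher and 2232 to 3108 lower. The lowest total and the fewest lower genes came without the second cardiomyocyte array, which left 1490 higher, and the fewest higher genes without the first; the remaining array of that group is then assumed to vary like the other groups. With batch as a replicate block, which pairs the sorted arrays, 6217 genes were called, 2599 higher and 3618 lower; among genes with values given above it changed the call of Afp, Col3a1, Nexn and Nkx2-5. All other alternatives kept the 3 counts within 1.5 times. Of 201 called genes that the text or the naming rule names, 201 kept their direction under all 20 alternatives and 156 also kept the call. Laptm5, a lysosomal protein of blood cells, was not called at 0.56, and its difference was -1.87 as the mean of all its probe sets (adjusted p = 0.00528 in limma); the cause was not tested. Medians of the lists of receptors, transcription factors, ligands and neural genes changed sign between settings, so no direction is given for them. Signals near background limit what the array can show for dim genes.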
